A study of Mus musculus with 9 samples.

Results

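The CDC-like kinases (CLKs) are Clk1, Clk2, Clk3 and Clk4 in the mouse. These 4 genes were taken by symbol from the 35975 genes with a quantified transcript in the mediobasal hypothalamus (MBH), together with all 47 of their annotated transcripts out of 119414 quantified. All 4 genes passed the filter on low counts, as 15340 genes did. The family was selected on its own measured values, the gene levels and transcript shares in Emul against CTRL, so these are described here without a test. RNAseq was performed on the MBH of male wild-type C57Bl/6 mice at P21, the age of weaning. Dams of the CTRL group drank plain water, and dams of the Emul group drank water with 1% carboxymethylcellulose (CMC) and 1% polysorbate 80 (P80), both emulsifiers. There were 4 CTRL and 5 Emul libraries, which per the methods represent separate litters. The library kit kept the strand and selected mRNA.

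CLKs are dual-specificity kinases of the nucleus. They phosphorylate the arginine- and serine-rich tails of SR proteins, the splicing regulators stored in nuclear speckles, and thereby release them for work on nascent transcripts. CLK genes are also known for controlling their own splicing. An alternative exon early in the coding region, exon 4, can be included to give the active kinase, skipped to give a truncated reading frame, or left in the transcript together with the introns on both sides of it.

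Exon 4 is the feature on which the transcripts described here differ, so its sequence in each gene is shown. Sequences and positions are from the GENCODE M21 annotation of GRCm38 (mm10), read on the strand of the gene. Exon 4 is in capitals, with 20 bases of intron 3 before it and 20 bases of intron 4 after it in lower case.
Clk1: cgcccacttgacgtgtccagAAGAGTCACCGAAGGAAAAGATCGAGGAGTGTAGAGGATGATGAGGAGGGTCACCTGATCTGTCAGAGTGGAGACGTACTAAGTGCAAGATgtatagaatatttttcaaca
Clk2: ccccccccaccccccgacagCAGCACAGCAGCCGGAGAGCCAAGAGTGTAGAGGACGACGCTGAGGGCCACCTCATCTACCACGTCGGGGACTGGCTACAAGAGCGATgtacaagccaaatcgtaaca
Clk3: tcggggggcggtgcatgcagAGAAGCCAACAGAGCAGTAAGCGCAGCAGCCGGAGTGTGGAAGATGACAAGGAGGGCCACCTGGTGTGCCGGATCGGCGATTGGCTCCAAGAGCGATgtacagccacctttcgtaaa
Clk4: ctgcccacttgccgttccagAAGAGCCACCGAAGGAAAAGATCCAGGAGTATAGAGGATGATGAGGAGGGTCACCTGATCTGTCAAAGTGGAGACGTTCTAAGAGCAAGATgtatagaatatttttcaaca

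Exon 4 lies at chr1:58420121-58420211 on the minus strand in Clk1, at chr3:89169615-89169702 on the plus strand in Clk2, at chr9:57758627-57758723 on the minus strand in Clk3 and at chr11:51273078-51273168 on the plus strand in Clk4. It is 91 bases long in Clk1, 88 in Clk2, 97 in Clk3 and 91 in Clk4. Each length leaves a remainder of 1 when divided by 3, so leaving the exon out shifts the reading frame in all 4 genes. The exons of Clk1 and Clk4 are close copies, with the same base at 85 of 91 positions (93.4%). The 20 intron bases printed after exon 4 are also the same in both. The annotated transcripts of Clk1 and Clk4 shared 36 stretches of 31 bases, which were 0.432% of those of Clk1 and 0.595% of those of Clk4, and at most 3.31% of any single transcript. No such stretch was shared by any other pair of CLK genes. Reads within the shared stretches could be divided between Clk1 and Clk4 by the quantification.

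**Figure D1:**
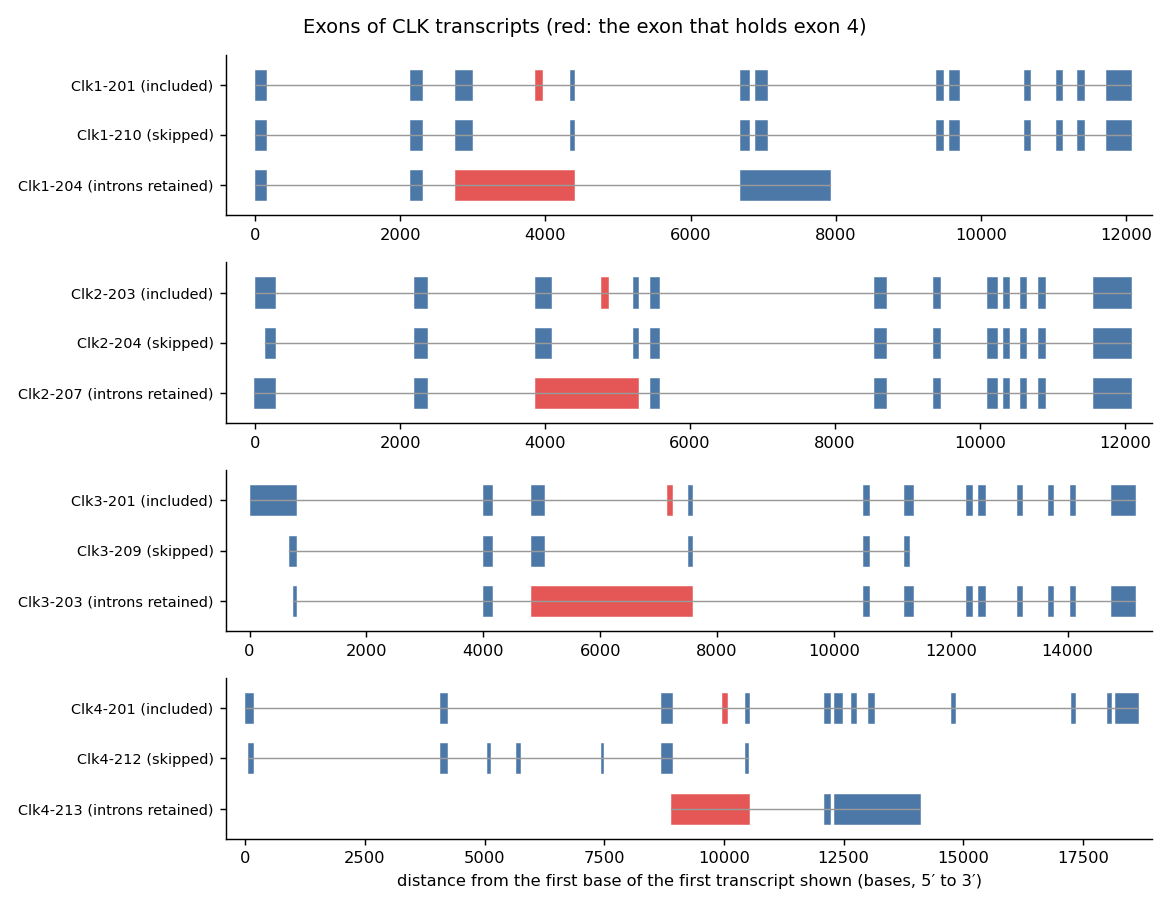
Exons (boxes) of 3 transcripts from each CLK gene, by distance in bases from the first base of the first transcript shown, 5′ to 3′. The red box is the exon that holds exon 4: it is separate in the included form, missing in the skipped form, and joined to its neighbours through introns 3 and 4 in the form with introns retained.

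The forms are drawn in the map of CLK exons. In Clk1, Clk1-201 (1796 bases spliced) is the 1 protein-coding transcript, and Clk1-210 (1705 bases) is shorter by exon 4 and is annotated as a target of nonsense-mediated decay, the pathway that degrades transcripts with an early stop. Clk1-204 (3191 bases) keeps introns 3 and 4, of 871 and 387 bases. Forms with the same 3 states of exon 4 were annotated in the other genes: Clk2-203, Clk2-204 and Clk2-207 in Clk2, Clk3-201, Clk3-209 and Clk3-203 in Clk3, and Clk4-201, Clk4-212 and Clk4-213 in Clk4. They do not all match in the rest of the transcript. Clk3-209 (764 bases, 6 exons) ends part of the way through the gene, and Clk4-212 (752 bases, 7 exons) carries exons that Clk4-201 lacks and ends within the exon after exon 4. Intron 3 was the longer of the pair in each gene, up to 2100 bases in Clk3.

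Depth ranged from 28245360 estimated counts in CTRL 3 to 46067534 in Emul 4. Between 3672 and 5585 counts per library fell on Clk1, 1073 to 1482 on Clk2, 2092 to 3202 on Clk3 and 2207 to 3270 on Clk4. All 9 genes that mark the MBH, such as Pomc, Agrp and Ghrh, passed the count filter, as did all 4 neuronal markers. All 4 thalamic markers passed it too, so the filter alone does not tell the regions apart. Several library-wide measures differed between the groups. Mitochondrially encoded protein genes took 4.51% to 5.52% of counts in CTRL and 5.71% to 6.75% in Emul, transcripts annotated with a retained intron took 7.12% to 7.74% of all TPM (transcript abundance corrected for length and scaled to a fixed total) in CTRL and 6.40% to 7.27% in Emul, and the summed TPM of 4 astrocyte markers was 661 ± 34.6 (SD) in CTRL and 543 ± 39.3 in Emul, without overlap. Of these 4 astrocyte genes, 1 had an unadjusted p under 0.05 by limma-voom. By counts scaled to the library total, 6.6% of single genes tested lay without overlap. The median gene differed by -0.10 in log2 TPM, Emul minus CTRL. The 4 neuronal markers, 3 of them under that threshold, summed to 1702 to 1893 TPM in CTRL and 1774 to 1900 in Emul. The summed TPM of 5 oligodendrocyte markers, 4 of them under that threshold, was 11639 to 14698 in CTRL and 8728 to 12185 in Emul. That of 4 markers of the neighbouring suprachiasmatic nucleus, 1 of them under it, was 23.3 to 34.0 and 12.5 to 28.7. Pituitary markers summed to 15.5 to 21.6 TPM in CTRL and 11.1 to 21.7 in Emul, and choroid plexus markers to 9.36 to 10.7 and 8.11 to 10.8, so both neighbouring tissues were scarce. The 4 thalamic markers, 2 of them under the same threshold, summed to 299 to 366 TPM in CTRL and 317 to 400 in Emul. The part of these measures in the CLK values below was not tested. In bulk tissue, fewer cells of a type and less RNA per cell cannot be told apart.

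All 4 CLK genes were expressed in the MBH. Measured as TPM, a level per transcript length, Clk1 had 120 ± 17.9 (SD, n = 9 libraries of both groups), Clk4 113 ± 11.9, Clk3 66.4 ± 4.21 and Clk2 37.7 ± 5.64. Clk1 exceeded Clk3 by 0.84 and Clk2 by 1.66 on the log2 TPM scale, and Clk3 exceeded Clk2 in 9 of 9 libraries (exact sign-flip permutation test within libraries, two-sided, adjusted p = 0.0047 over 6 pairs for every pair but Clk1 and Clk4). The neighbours Clk1 and Clk4 were not separated, with a mean difference of 0.08 ± 0.10 (SD) log2 TPM and Clk1 higher in 4 of 4 CTRL and 3 of 5 Emul libraries (exact p = 0.055). With 9 libraries the smallest p this test can give is 0.0039. It pools the groups, while the TPM of Clk1, Clk2 and Clk4 was lower in Emul without overlap. These levels are among the values on which the family was selected, so the order is best read by group. In each pair but Clk1 and Clk4, the same gene was higher in 4 of 4 CTRL and 5 of 5 Emul libraries.

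Much of the CLK RNA was on transcripts not annotated as coding for the kinase. The noncoding share, defined as the part of a gene's TPM outside its protein-coding transcripts, averaged 79.8% ± 9.04 (SD, n = 9) for Clk1, 67.0% ± 1.90 for Clk4, 50.0% ± 8.63 for Clk2 and 41.9% ± 4.04 for Clk3. Over 14832 protein-coding genes tested, the median share was 11.1%. The share was lower than that of Clk1 in 96.8% of these genes, lower than that of Clk4 in 93.7%, of Clk2 in 86.9% and of Clk3 in 82.2%. The pairs without Clk1 differed in this share (exact sign-flip permutation test, adjusted p over 6 pairs between 0.0078 and 0.039). The call for Clk2 and Clk4, 16.9 percentage points apart, was lost with estimated counts in place of TPM (5.36 points lower in Clk2, exact permutation test, adjusted p = 0.13). Clk2 and Clk3 were 8.15 percentage points apart, with the higher share in Clk2 in 4 of 4 CTRL and 3 of 5 Emul libraries, and leaving out 1 library moved the adjusted p to 0.062 or 0.078 for each of CTRL 1, 2, 3 and 4 and Emul 2, 4 and 5. The share of Clk1 exceeded those of Clk2 and Clk3 in 4 of 4 CTRL and 5 of 5 Emul libraries. It exceeded that of Clk4 in 3 of 4 CTRL and 5 of 5 Emul libraries. The tests given pool the groups, and their adjustment also counts the pairs with Clk1. The share of Clk2 averaged 56.4% in CTRL and 44.9% in Emul, with overlap. It exceeded that of Clk4 in 1 of 4 CTRL and 0 of 5 Emul libraries. The share of Clk1 differed between the groups, as given below, and is among the values on which the family was selected. No test of it over both groups is therefore given.

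Counting protein-coding transcripts alone changed the order of the levels, and that order then depended on the group. These sums hold partial transcripts too, so they do not rank full kinase transcripts. Clk4-202 begins in intron 4, after exon 4, and had 25.7 TPM in CTRL and 21.4 in Emul. The full form Clk4-201 had 12.8 and 8.38 TPM, under the 39.2 and 14.2 of Clk1-201. Short pieces in the sums of Clk2 and Clk3 include Clk2-210 (593 bases), Clk3-204 (576 bases) and Clk3-206 (789 bases). By coding sum in CTRL (n = 4), Clk4 had 41.9 ± 0.56 TPM (SD), Clk3 39.8 ± 3.24, Clk1 39.2 ± 9.56 and Clk2 18.4 ± 2.66. In Emul (n = 5), Clk3 had 37.6 ± 2.80, Clk4 33.7 ± 2.46, Clk2 18.6 ± 2.33 and Clk1 14.2 ± 3.23. The coding level of Clk1 lay between 27.8 and 51.0 TPM in CTRL and between 11.4 and 19.4 TPM in Emul. It was above that of Clk3 in 3 of 4 CTRL libraries and in 0 of 5 Emul libraries. Since this difference between the groups is among the values on which the family was selected, no test over both groups is given for coding Clk1 against another gene. Coding Clk2 was below coding Clk3 and coding Clk4 in 9 of 9 libraries (exact sign-flip permutation test, adjusted p = 0.012 over 6 pairs). Coding Clk3 exceeded coding Clk4 in 1 of 4 CTRL and 4 of 5 Emul libraries. The coding level of Clk4 lay between 41.1 and 42.2 TPM in CTRL and between 29.5 and 35.8 TPM in Emul. Over both groups, coding Clk3 minus Clk4 averaged 0.05 ± 0.16 log2 TPM (exact sign-flip permutation test, adjusted p = 0.39). That test pools unlike directions, so nothing is read from it.

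Between the groups, the level of each CLK gene was lower in Emul. For Clk1 (chr1:58410189-58424066), log2 CPM, counts relative to the scaled library total, were 7.10, 6.98, 7.12 and 7.02 in CTRL 1 to 4 and 6.80, 6.78, 6.80, 6.74 and 6.67 in Emul 1 to 5. Every Emul library was below every CTRL library. The fitted log2 fold change, Emul over CTRL, was -0.29 (SE 0.039), or 18.5% lower.

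Clk4 (chr11:51261730-51281766), the closest paralog of Clk1, had log2 CPM of 6.28, 6.23, 6.29 and 6.24 in CTRL and 6.06, 6.01, 6.05, 6.01 and 5.93 in Emul. The groups were again apart, with a log2 fold change of -0.25 (SE 0.034), or 15.7% lower. Clk2 (chr3:89164795-89176921) had 5.16, 5.16, 5.24 and 5.10 in CTRL and 4.99, 5.07, 5.09, 4.97 and 4.97 in Emul. Its log2 fold change was -0.14 (SE 0.042). The highest Emul value of Clk2 lay just under the lowest CTRL value.

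Clk3 (chr9:57750624-57765860) had the smallest difference, with log2 CPM of 6.15, 6.20, 6.20 and 6.21 in CTRL and 6.14, 6.05, 6.08, 6.13 and 6.04 in Emul, and its log2 fold change was -0.10 (SE 0.033). Thus the groups did not overlap for any of the 4 genes. Among all genes tested, 3.8% lay without overlap on the Emul-lower side, and 0.117% were called at an adjusted p under 0.05 by limma-voom. Clk1 and Clk4 were among the latter, a call that belongs to the reasons they were picked, and nothing is read from these counts.

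The authors' own gene table gave a different picture for Clk3. In it, Clk3 stood at 5.01, 4.72, 5.10 and 4.85 log2 CPM in CTRL and 4.99, 4.87, 4.93, 4.97 and 5.13 in Emul, with overlapping groups and the higher mean in Emul. Clk1 and Clk4 remained apart there, at 7.12 to 7.22 against 6.73 to 6.94 for Clk1 and at 6.29 to 6.38 against 6.08 to 6.26 for Clk4, where 2.98% of the genes in the table lay that way. Clk2 overlapped narrowly, at 5.19 to 5.47 in CTRL and 4.95 to 5.22 in Emul. How transcripts were combined for that table is not given in the sources used here. Its Clk3 values put the 9 libraries in the same order as the CPM of the coding transcript Clk3-201. That transcript had 24.2 to 31.8 CPM in CTRL and 27.2 to 32.5 CPM in Emul. Whether the Clk3 row of that table rests on this transcript alone was not tested. When counts were instead scaled from TPM by transcript length, the log2 fold changes were -0.22 for Clk2, -0.016 for Clk3 and -0.15 for Clk4.

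**Figure D2:**
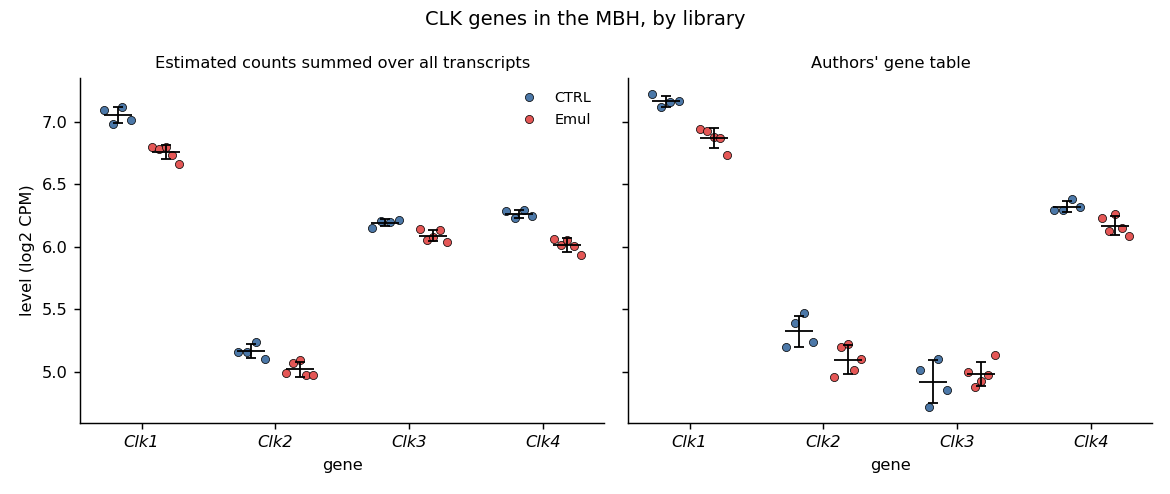
Level of each CLK gene (log2 CPM) in the 4 CTRL and 5 Emul libraries, from all transcripts summed per gene (left) and from the authors' gene table (right); points are libraries, horizontal marks the mean and error bars the SD. On the left, each gene's Emul points lie under its CTRL points; on the right, Clk3 sits near 5 in both groups.

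The 4 genes did not vary as 1 unit from library to library. After the group means were subtracted, log2 CPM of Clk1 and Clk4 went together over the 9 libraries (Pearson r = 0.93), and Clk4 was the fifth most similar gene to Clk1 of all genes tested. Clk1 had r of 0.66 with Clk2 and 0.09 with Clk3, Clk4 had r of 0.51 with Clk2 and 0.38 with Clk3, and Clk2 and Clk3 had r of -0.29. These are descriptions of 9 libraries that share their depth and tissue composition. By the same measure the genes nearest to Clk1 were Coro2b (0.98), Slc30a2, Gm37601, Ppt2 and Clk4, those nearest to Clk4 were Arl14ep (0.96), Slc29a2, Cables1, Mmachc and Fbxl6, those nearest to Clk2 were Ier5l (0.96), Tars, 3110040N11Rik, Gpc1 and Farsa, and those nearest to Clk3 were Ttll3 (0.99), Dok2, Gper1, Tgif1 and Pmvk.

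The difference of a gene was not spread evenly over its transcripts. Transcripts are compared between libraries as CPM scaled in the same way as the genes, since the median gene differed by -0.10 in log2 TPM, Emul minus CTRL, and by 0.00 in scaled log2 CPM. Of the 47 CLK transcripts, 37 averaged at least 1 TPM and the other 10 less. Without overlap between the groups, 7 of these 37 lay lower in Emul and 0 lay higher, beside 2.69% and 1.68% of 47709 transcripts of all genes. The transcript values are kallisto's divisions of reads among overlapping forms, so the values of 1 gene's forms are not independent of each other.

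Among the 26 CLK transcripts with at least 5% of their gene's TPM, the coding form of Clk1 had the lowest ratio of Emul to CTRL. Clk1-201, which includes exon 4 and encodes the kinase, had 32.4, 23.1, 41.9 and 34.5 CPM in CTRL and 13.7, 18.3, 12.1, 10.3 and 10.2 CPM in Emul. No Emul library reached the lowest CTRL library, and the ratio of the means was 0.392. Clk1-210, its counterpart without exon 4, had 15.6, 18.2, 3.89 and 14.5 CPM in CTRL and 21.3, 13.1, 18.4, 22.7 and 27.9 CPM in Emul, a ratio of 1.58. Here the groups overlapped, and CTRL 3 alone lay far under the other libraries. The form with both introns, Clk1-204, was the most abundant in counts and had 56.0, 53.0, 61.4 and 51.1 CPM in CTRL and 47.4, 45.9, 50.3, 45.5 and 42.1 CPM in Emul. Its groups were apart, with a ratio of 0.835. Clk1-202, a retained-intron transcript that does not span exon 4, overlapped between the groups and had a ratio of 0.938.

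The sum of the included and skipped forms of Clk1 does not depend on how reads were divided between these forms. It was 49.9, 43.0, 47.4 and 50.5 CPM in CTRL and 36.4, 32.5, 32.5, 34.3 and 38.4 CPM in Emul. The groups did not overlap.

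In Clk4 the included form and the form with introns were both lower in Emul. Clk4-201, the full coding form, had 12.6, 11.5, 11.96 and 10.9 CPM in CTRL and 7.97, 9.21, 5.51, 8.35 and 10.4 CPM in Emul, a ratio of 0.705 without overlap. Clk4-213, which keeps introns 3 and 4, had 28.8, 27.5, 30.0 and 26.5 CPM in CTRL and 25.1, 24.4, 24.8, 22.6 and 17.8 CPM in Emul, a ratio of 0.813. Emul 5 was the lowest library for Clk4-213 but near the CTRL range for Clk4-201. Clk4-207, a retained-intron transcript that holds part of this region, was also without overlap (6.81 to 8.70 CPM in CTRL and 4.73 to 6.01 CPM in Emul). The skipped form Clk4-212 overlapped, with 4.28 to 6.55 CPM in CTRL and 3.64 to 5.82 CPM in Emul and a ratio of 0.962. Clk4-202, the coding transcript with the largest share of Clk4 TPM, overlapped at a ratio of 0.892. Clk4-206, Clk4-209 and Clk4-210, short retained-intron transcripts, had at most 2.77 CPM in any library, with overlapping groups. Their ratios were 0.939, 1.44 and 1.67.

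**Figure D3:**
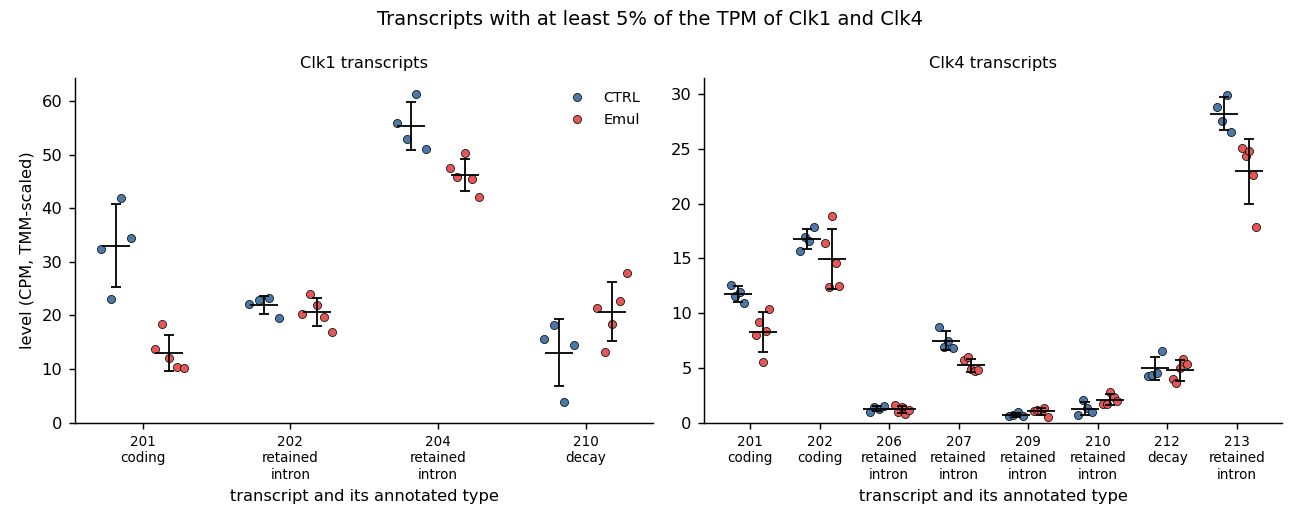
Level (CPM, TMM-scaled) of the Clk1 and Clk4 transcripts with at least 5% of their gene's TPM, by library, labelled by the last part of the transcript name and its annotated type; points are libraries, horizontal marks the mean and error bars the SD. Clk1-201 is at 23.1 to 41.9 in CTRL and at 10.2 to 18.3 in Emul, while Clk1-210 overlaps between the groups.

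Clk2 and Clk3 showed lower mean values for the forms that keep introns 3 and 4 and not for their main coding forms. Clk3-203, which keeps introns 3 and 4, had 26.1, 24.5, 24.0 and 28.9 CPM in CTRL and 20.2, 23.1, 22.9, 22.0 and 17.1 CPM in Emul, without overlap and with a ratio of 0.814. The main coding form Clk3-201 had 24.2 to 31.8 CPM in CTRL and 27.2 to 32.5 CPM in Emul, a ratio of 1.04. Clk2-207, the corresponding form of Clk2, had 9.90, 8.80, 10.4 and 10.7 CPM in CTRL and 8.88, 9.01, 8.06, 7.91 and 7.18 CPM in Emul, a ratio of 0.824 with CTRL 2 inside the Emul range. The coding form Clk2-203 averaged 7.44 CPM in CTRL and 10.6 CPM in Emul, with overlapping groups. The remaining transcripts with at least 5% of the TPM of Clk2 or Clk3 had ratios between 0.587 (Clk2-204, skipped) and 1.13 (Clk3-202) and overlapping groups. Clk3-202 is a retained-intron transcript that does not span exon 4, as is Clk3-208, with a ratio of 0.958. Clk2-205, a retained-intron transcript with a smaller share of the gene, was without overlap (0.76 to 1.16 CPM in CTRL and 0.28 to 0.45 CPM in Emul).

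Forms counted as introns retained keep both introns beside exon 4, except that Clk2-206 keeps intron 4 alone and Clk3-207 intron 3 alone. For Clk2 the sum adds Clk2-206 to Clk2-207, which by itself overlapped between the groups. The sums of these forms were lower in Emul for all 4 genes. They came to 52.2 to 63.5 CPM in CTRL and 42.7 to 51.8 CPM in Emul for Clk1, 11.6 to 13.1 and 8.89 to 11.0 for Clk2, 25.5 to 29.2 and 17.1 to 24.3 for Clk3, and 26.5 to 30.0 and 17.8 to 25.1 for Clk4, none with overlap. The sum over every transcript annotated as retained_intron was without overlap for Clk2, Clk3 and Clk4 but not for Clk1, where Emul 3 stood at 75.0 CPM and CTRL 4 at 74.9 CPM. Of all genes, 5.32% had such a sum lower in Emul without overlap, and the median gene's log2 ratio of means was -0.05. The ratios of the CLK genes on that scale were -0.23 for Clk1, -0.38 for Clk2, -0.24 for Clk3 and -0.25 for Clk4. The lower retained-intron share of whole libraries, given above, moved in the same direction, and its part in these values was not tested.

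The coding sum separated the genes. It was lower in Emul without overlap for Clk1 (log2 ratio of means -1.35) and for Clk4 (-0.25, from 30.5 to 31.5 CPM in CTRL to 24.7 to 28.0 CPM in Emul), beside 3.31% of all genes. For Clk2 (0.24) and Clk3 (0.02) the groups overlapped.

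Shares within a gene are not affected by the scaling of the libraries. In these, the groups lay apart for Clk1 and for the retained-intron transcripts of Clk2. The noncoding share of Clk1 was 73.2%, 79.4%, 63.6% and 70.2% in CTRL and 86.2%, 81.4%, 87.2%, 89.1% and 88.2% in Emul, with every Emul library above every CTRL library. The share averaged 71.6% ± 6.56 in CTRL (SD, n = 4) against 86.4% ± 2.99 in Emul (n = 5). The noncoding shares of the other 3 CLK genes overlapped, and without overlap were 3.61% of 11188 genes with noncoding transcripts. For Clk2 the share averaged 56.4% ± 6.66 in CTRL and 44.9% ± 6.43 in Emul, for Clk3 42.7% ± 2.44 and 41.2% ± 5.18, and for Clk4 66.2% ± 1.37 and 67.6% ± 2.17.

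By transcript type, the share of Clk2 TPM on retained-intron transcripts was 44.8%, 42.2%, 44.7% and 41.8% in CTRL and 36.4%, 39.5%, 38.6%, 31.2% and 33.5% in Emul. Every Emul library was below every CTRL library, as in 4.05% of 5924 genes with such transcripts. Clk2-205 also lay apart as a share, at 4.91% to 6.57% of the gene in CTRL and 2.20% to 2.98% in Emul, beside 1.94% of all transcripts on that side. In Clk1 the processed transcripts, which are spliced but have no annotated reading frame, held 6.06% to 7.92% in CTRL and 8.18% to 10.9% in Emul, as 1.22% of 3925 genes did in that direction. Clk1-203, one of them, was at 1.83% to 2.78% and 2.98% to 4.19%, beside 1.34% of all transcripts.

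The state of exon 4 was then taken over the transcripts that span it. In the means of CTRL and Emul, these held 68.3% and 65.3% of the TPM of Clk1, 76.1% and 82.3% of that of Clk2, 60.7% and 58.3% of that of Clk3 and 40.3% and 38.5% of that of Clk4. Clk1 transcripts with exon 4 included made up 39.5%, 31.5%, 51.3% and 43.3% of this TPM in CTRL and 21.4%, 31.3%, 19.7%, 16.8% and 16.2% in Emul. The groups did not overlap, although CTRL 2 and Emul 2 were close to each other. Skipping of exon 4 took 22.8%, 29.0%, 7.56% and 21.5% in CTRL and 37.7%, 25.9%, 35.5%, 42.1% and 47.5% in Emul. The same 2 libraries crossed here, while the share with introns retained was 38.4% ± 2.55 in CTRL and 41.2% ± 3.12 in Emul. With estimated counts in place of TPM, the mean difference in skipping was 12.3 percentage points rather than 17.5.

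The other CLK genes held different balances of the 3 states. In TPM, the skipped forms were the largest state of Clk4 in the group means, at 41.4% ± 5.26 in CTRL (SD, n = 4) against 46.0% ± 5.76 in Emul (n = 5), with 26.1% ± 2.88 and 22.8% ± 3.53 included. TPM divides by length and so gives weight to the short Clk4-212. In CPM, which does not, the skipped forms of Clk4 were the smallest state, at 7.76 in CTRL and 7.55 in Emul, against 11.8 and 8.49 for the included and 28.2 and 22.9 for the form with introns retained. By TPM, Clk3 was mostly included, at 66.7% ± 3.03 and 71.1% ± 4.11, and its skipped form never passed 3.39%. Clk2 skipping ranged widely within a group, from 6.85% in CTRL 1 to 29.5% in CTRL 2 and from 3.30% in Emul 3 to 21.5% in Emul 2. For these 3 genes each state overlapped between the groups.

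**Figure D4:**
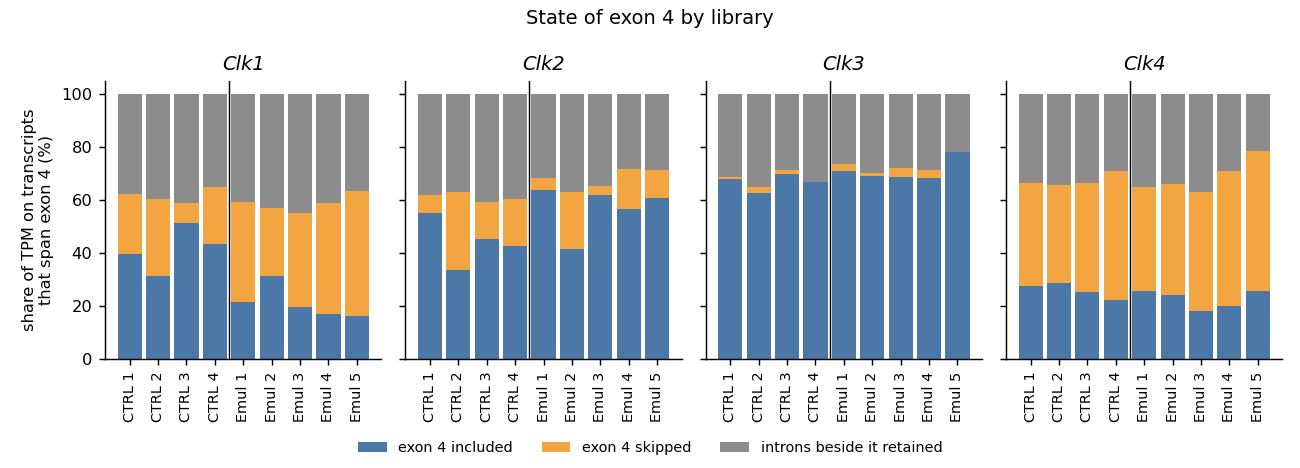
Share of TPM (%) on transcripts that span exon 4, by its state, for each library and CLK gene; each bar sums the included, skipped and intron-retaining forms, and the vertical line parts CTRL from Emul. The included share of Clk1 is 31.5% to 51.3% in CTRL and 16.2% to 31.3% in Emul, while Clk3 has almost no skipped form in either group.

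Decay transcripts were also set against coding transcripts, gene by gene. The decay share, that of nonsense-mediated decay transcripts in the sum of decay and coding TPM, was 32.5% ± 14.8 (SD, n = 4) for Clk1 in CTRL and 63.9% ± 11.4 (SD, n = 5) in Emul, with overlap. It was 31.6% ± 2.85 and 31.2% ± 2.73 for Clk4, 22.8% ± 13.1 and 14.0% ± 9.51 for Clk2, and 1.23% ± 1.02 and 2.03% ± 1.54 for Clk3. None of the 4 was without overlap, and of 3566 genes 2.61% were.

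Finally, the genes with which CLKs work were examined from lists of the pathway. No list held a gene at an adjusted p under 0.05 by limma-voom, so the counts that follow are at an unadjusted p under 0.05, where 8.99% of all genes lay lower and 6.84% higher in Emul. Among 13 SR proteins, the substrates of CLKs, 3 lay lower and 1 higher, with a median log2 fold change of -0.03 beside 0.00 for all genes. Srsf11, a splicing regulator, had 7.61 ± 0.049 log2 CPM in CTRL (SD, n = 4) against 7.74 ± 0.050 in Emul (n = 5) (log2 fold change 0.13, limma-voom adjusted p = 0.14). Tra2a, an activator of exon inclusion, had 6.80 ± 0.060 and 6.60 ± 0.12 (-0.19, limma-voom adjusted p = 0.16), and Srsf1, the founding SR protein, had 6.69 ± 0.014 and 6.59 ± 0.054 (-0.09, limma-voom adjusted p = 0.21). Neither direction was shared by the list.

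The other kinases of SR proteins and their relatives also lay on both sides. Of 12, 4 lay lower and 2 higher, with a median log2 fold change of -0.08. Srpk2, an SR protein kinase enriched in brain, had 7.90 ± 0.044 log2 CPM in CTRL (SD, n = 4) against 8.00 ± 0.036 in Emul (n = 5), and Dyrk1a, a kinase related to CLKs, had 6.43 ± 0.031 and 6.56 ± 0.061, both without overlap and higher in Emul (log2 fold changes 0.10 and 0.13, limma-voom adjusted p = 0.18 and 0.16). Hipk2, a nuclear kinase, had 7.15 ± 0.056 and 7.02 ± 0.052 (-0.12, limma-voom adjusted p = 0.17). The 3 catalytic subunits of protein phosphatase 1, which removes phosphates from SR proteins, had a median log2 fold change of 0.02 and 0 of them passed the unadjusted threshold.

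Of 28 RS-domain and nuclear speckle genes, 3 lay lower and 0 higher, with a median of 0.01. Ccnl2, a cyclin of the nuclear speckle, had 6.91 ± 0.069 log2 CPM in CTRL (SD, n = 4) against 6.74 ± 0.047 in Emul (n = 5) without overlap (log2 fold change -0.17, limma-voom adjusted p = 0.10), and Acin1 and Srrm3 had log2 fold changes of -0.07 and -0.08. Of 28 core spliceosome genes, 0 lay lower and 4 higher, with a median of 0.04. Dhx38, a spliceosomal helicase, had 5.19 ± 0.054 and 5.30 ± 0.012 (0.11, limma-voom adjusted p = 0.18), and Sf3b1, of the branch-site complex, and Prpf19, of the Prp19 complex, had log2 fold changes of 0.09 and 0.08. Of 15 nonsense-mediated decay factors, 0 passed in either direction, with a median of -0.01. Of 5 nuclear-retained long noncoding RNAs listed, Snhg11 was the 1 tested, at -0.01. At an adjusted p under 0.05, DESeq2 called 2 of 13 SR proteins (Srsf11 and Tra2a) and 1 of 12 related kinases (Dyrk1a). It also called 1 of 28 RS-domain and speckle genes (Ccnl2), beside 341 of all 15340 genes tested. With edgeR's quasi-likelihood test, 0 genes of the lists were called, beside 33 of all genes.

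**Figure D5:**
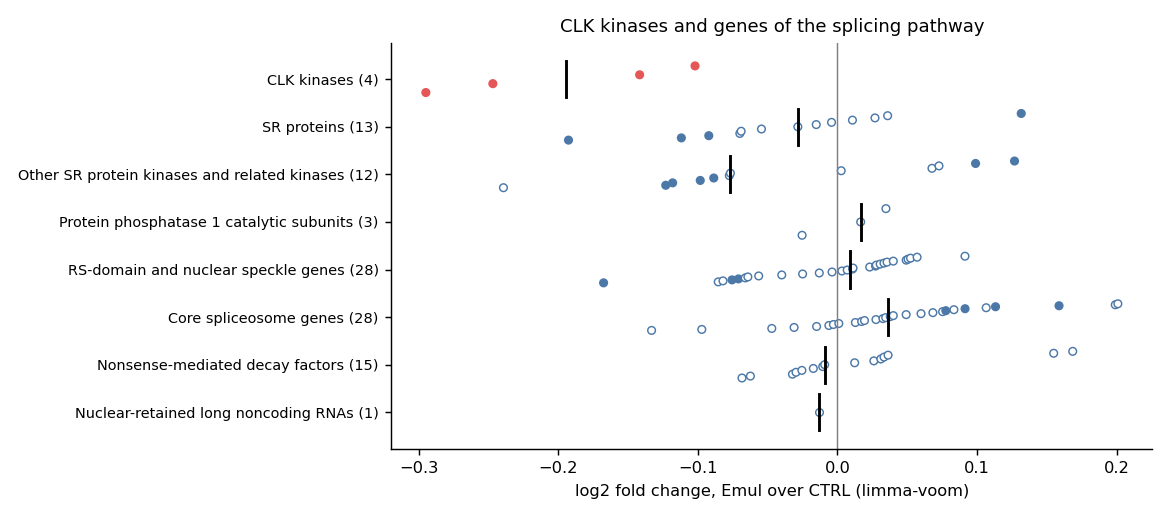
Log2 fold change, Emul over CTRL, of the CLK kinases (red) and of the tested genes of each pathway list (blue, number in brackets); filled blue points have an unadjusted p under 0.05 and black bars are medians. The 4 CLK values lie between -0.29 and -0.10, and the list medians lie between -0.08 and 0.04.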

How the data were processed

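The series holds MBH RNAseq of males at P21, with 4 CTRL and 5 Emul libraries. The authors ran kallisto (0.46.1, per the submitters' processing notes) on mm10 and deposited, for each library, estimated counts, which are not normalized, and TPM values for 119414 transcripts. They also deposited a gene table of log2 CPM, used here as it stands for 14592 named genes. Transcripts were matched to GENCODE M21 (97.8% matched). Unmatched transcripts held 1.20% to 1.27% of counts and were not used. Groups and replicate numbers came from the sample labels.

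Estimated counts were summed per gene. The filter asked for a CPM over 1 in 4 or more libraries, which 15340 genes passed. These were scaled by TMM and fitted with limma-voom (limma 3.58.1, edgeR 4.0.16, R 4.3.3) without covariates. Adjustment of p-values was by Benjamini-Hochberg across the genes in the fit. Log2 CPM of single libraries used a prior count of 2. Shares were taken from TPM, and transcripts were compared between groups as CPM on the TMM-scaled library sizes. Genes were compared with each other within libraries by an exact sign-flip permutation test, and scripts were tested on simulated data.

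The CLK genes, the pathway and marker lists, the tests and the rule for naming genes were chosen with earlier results of these data known. Genes named are the 4 CLK genes, their transcripts with at least 5% of the gene's TPM, up to 3 genes per list with the smallest unadjusted p under 0.05, and the 5 genes most similar to each CLK gene. Other transcripts, Clk2-205 among them, and Snhg11 were named after their values were seen, and the exon 4 states and TMM-scaled transcript values were also chosen then. As alternatives, DESeq2 (1.42.0), edgeR's quasi-likelihood test and limma-trend were run, with other scalings and filters, lengthScaledTPM, coding transcripts alone, the authors' table, mitochondrial genes left out, the replicate number as a block, and each library left out. The methods call the libraries litters; no batch or date is given in the sources used here, so none was modelled.

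Each CLK gene had 1073 or more counts per library. Counting noise and differences between libraries both enter the SD of the gene levels, and their parts were not separated. Transcript values carry the further uncertainty of kallisto's assignment, which was not among the values used here.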

Additional observations from a re-analysis of the deposited data

Results flagged for a closer look

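Of 134 sets of values examined (each CLK gene level, share and named transcript, within each group), 8 had 1 library far from the rest of its group, where chance alone gives about 6.7. The noncoding share of Clk2 was 56.0% in Emul 2 and 40.0% to 44.0% in the other Emul libraries, so its coding share was 44.0% against 56.0% to 60.0%. The share of Clk3 with exon 4 included was 78.2% in Emul 5 and 68.2% to 71.1% in the others. The noncoding share of Clk4 was 68.2% in CTRL 3 and 65.2% to 65.6% in the other CTRL libraries, with a coding share of 31.8% against 34.4% to 34.8%. The Clk4 share with introns beside exon 4 retained was 28.8% in CTRL 4 and 33.5% to 34.3% in the others, and Clk4-212, the skipped form, had 6.55 CPM in the same library and 4.28 to 4.56 CPM in the others. Clk4-209, a retained-intron transcript, had 0.516 CPM in Emul 5 and 1.07 to 1.28 CPM in the others.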

How the results depend on the processing

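The log2 fold changes of Clk1 and Clk4 stayed below 0 under every alternative run. With coding transcripts alone, those of Clk1, Clk2 and Clk3 became -1.33, 0.26 and 0.024. With lengthScaledTPM, those of Clk2, Clk3 and Clk4 became -0.22, -0.016 and -0.15, and in the authors' table -0.22, 0.060 and -0.15. Leaving out 1 library gave -0.32 to -0.27 for Clk1, -0.16 to -0.12 for Clk2, -0.12 to -0.09 for Clk3 and -0.26 to -0.23 for Clk4. The cause of these shifts was not tested.

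The count of genes called, 18 in the limma-voom fit, was 33 with edgeR's quasi-likelihood test, 341 with DESeq2, 8 with limma-trend, 10 with median-of-ratios size factors, 60 with library size alone, 5 without a filter, 10 with filterByExpr, 6 with lengthScaledTPM, 10 with coding transcripts alone, 5 in the authors' table and 6 without mitochondrial genes. It was 0 to 24 when 1 library was left out, 0 without CTRL 2 (2081 genes at an unadjusted p under 0.05). With DESeq2, 2 SR proteins, 1 related kinase and 1 RS-domain and speckle gene were called, against 0. At an unadjusted p under 0.05, the alternatives gave 2 to 9 core spliceosome genes against 4, 1 to 9 RS-domain and speckle genes against 3 (9 with library size alone, 8 with lengthScaledTPM or the authors' table, 1 without CTRL 2 or CTRL 4), 3 to 7 SR proteins against 4, 4 to 7 related kinases against 6 and 0 to 2 decay factors against 0.

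Levels per length with coding transcripts alone were also taken over both groups, although coding Clk1 and Clk4 differed between them. Clk1 minus Clk2 was then 0.25, Clk1 minus Clk3 -0.81, Clk1 minus Clk4 -0.76 and Clk3 minus Clk4 0.052 log2 TPM. Over all transcripts, Clk1 minus Clk4 was 0.055 to 0.094 log2 TPM when 1 library was left out. It passed the threshold without Emul 3 (0.094) or Emul 5 (0.090). The difference in noncoding share of Clk2 and Clk4 was -5.36 percentage points with estimated counts in place of TPM (adjusted p = 0.13, exact permutation test), and that of Clk2 and Clk3 was 6.31 to 10.2 when 1 library was left out.

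With the replicate number as a block, 1 gene was called and the log2 fold changes of Clk1 to Clk4 were -0.27, -0.13, -0.09 and -0.23. Libraries with the same number did not deviate together (correlations of -0.16, -0.015, 0.021 and -0.055). Libraries with unlike numbers had correlations of -0.16 to 0.18. No pairing by number was detected, though a small shared effect could escape this check.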
